A study of Mus musculus with 8 samples.

Results

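The 8 genes described here encode transcription factors of foregut endoderm and liver: Hnf4a, Hnf4g, Foxa1, Foxa3, Onecut1, Onecut2, Gata4 and Gata6. They were taken by symbol from a count table of 55536 mouse genes, and all 8 had a row. RNA was measured in MIN6 cells, a β-cell line derived from a mouse insulinoma, labelled wild type. The control group was transfected with the empty plasmid pcDNA 3 and the Klf4-plasmid group with pGloMyc-Klf4, which expresses the zinc-finger factor Klf4, in each case for 48 h with Lipofectamine 3000, a lipid reagent. Each group had 4 biological replicates, with replicates 1 and 2 in batch 1 and replicates 3 and 4 in batch 2. The plasmids differ in name as well as in insert, so an effect of the backbone and an effect of Klf4 cannot be told apart.

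Foregut endoderm gives rise to liver, pancreas, stomach and proximal intestine, and a shared set of factors acts in all of them. FOXA proteins open compacted chromatin and GATA4 and GATA6 bind beside them before organ genes are active. HNF4 proteins are nuclear receptors that hold hepatocyte and enterocyte genes on, and ONECUT proteins act in liver, bile duct and pancreatic progenitors. In the adult β-cell HNF4A is needed for normal insulin secretion, and its mutation causes inherited diabetes in humans. GATA4 and GATA6 act mainly in early pancreatic progenitors.

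Libraries held 45417853 to 52731176 counts, and 18266 genes passed the filter on low counts (about 0.204 CPM, which are counts scaled to library size, in at least 4 libraries). The transfected gene checked the labels: Klf4 had 40.1 ± 3.11 CPM in control and 5040 ± 567.2 CPM in Klf4-plasmid libraries (SD, n = 4). Of the tested genes, 36.6% differed between the groups at an adjusted p under 0.05 (edgeR's quasi-likelihood test with a batch term, Benjamini-Hochberg adjustment over all tested genes). Higher genes made up 21.1% of those tested and lower genes 15.5%, and the median log2 fold change of all tested genes was -0.014. With scaling factors taken from abundant genes, 72.8% of called genes were higher, where TMM factors gave 57.7%. The insulin genes, which define β-cells, were abundant, with Ins2 at 16810 ± 2904 CPM and Ins1 at 3366 ± 719.9 CPM in control (SD, n = 4). Of 5 hepatocyte markers, Alb and Afp lay at 0.0777 and 0.021 CPM in control and 0.0873 and 0.00958 CPM in Klf4-plasmid libraries. Control and Klf4-plasmid means were 3.643 and 3.675 CPM for Serpina1a, 0.874 and 0.553 CPM for Apoa1 and 0.0306 and 0.746 CPM for Ahsg. Only Ahsg was called, and it passed the filter through the Klf4-plasmid libraries alone.

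Of the 8 factors, 5 rose and 1 fell in Klf4-plasmid cells, 1 did not pass the test and 1 was not tested. Gata4 and Gata6 went from near absence to low but clear expression. Hnf4a, Foxa1 and Foxa3 rose by 1.33-fold to 1.55-fold from levels that were already present. Onecut2 fell to 0.834 of its control level, Hnf4g did not pass the test, and Onecut1 stayed at or under 3 counts in every library. The share called among all tested genes was 36.6%. Gata4 and Gata6 passed the filter on low counts through their Klf4-plasmid libraries (of the controls only replicate 1 reached that level, for Gata6), so their presence among the tested genes already required a difference, and no support is drawn from the count. The other 5 tested factors reached the filter's level in every control library. Among the 16203 tested genes for which that held, 35.5% were called. In RNA from bulk cultures, a change in the number of cells that express a gene and a change in RNA per cell cannot be told apart.

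**Figure D1:**
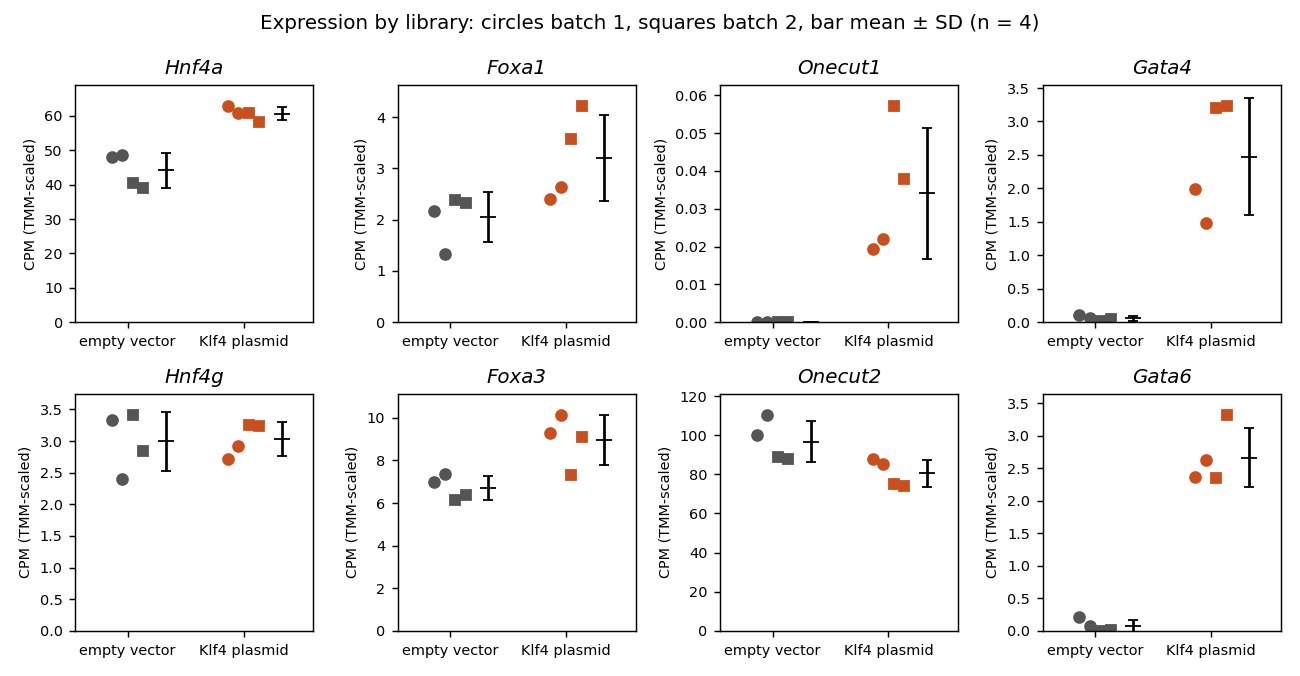
Normalised expression (TMM-scaled CPM, linear axes from 0) of the 8 factors in each library, grey for empty vector and orange for the Klf4 plasmid, circles for batch 1 and squares for batch 2, with the mean ± SD beside each group (n = 4). Gata4 and Gata6 lie near 0 in control and between 1.48 and 3.32 CPM in Klf4-plasmid libraries, while the groups of Hnf4g overlap.

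Hnf4a (ENSMUSG00000017950, chromosome 2, 163506808 to 163572910, plus strand, GRCm38) encodes a nuclear receptor that binds DNA as a homodimer and activates genes of lipid, bile acid and glucose metabolism. It is transcribed from a distal promoter, P2, which is the main one in β-cells, and from a proximal promoter, P1, which is the main one in liver. A count per gene does not separate them. RefSeq (GRCm38.p6) lists a start site for each, and because Hnf4a is the most abundant of the 8 factors per kilobase and rose, the bases before both starts are shown, with the annotated exonic bases left out. Capitals mark CACCC or its reverse complement GGGTG, the core of the CACCC box that Krüppel-like factors bind.
Hnf4a distal start, plus strand, chr2:163506607-163506807: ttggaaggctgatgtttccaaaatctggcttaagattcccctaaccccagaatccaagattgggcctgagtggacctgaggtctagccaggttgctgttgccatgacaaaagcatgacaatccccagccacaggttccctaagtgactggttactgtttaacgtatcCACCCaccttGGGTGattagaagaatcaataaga
Hnf4a proximal start, plus strand, chr2:163546943-163547154: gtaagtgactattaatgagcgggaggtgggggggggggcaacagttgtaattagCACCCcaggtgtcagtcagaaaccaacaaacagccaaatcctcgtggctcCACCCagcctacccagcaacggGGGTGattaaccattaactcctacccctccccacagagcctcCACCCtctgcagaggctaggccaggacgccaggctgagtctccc
In the full 250 bases before each start there were 3 matches at the distal and 5 at the proximal start. The printed parts hold 2 and 4 of them. At least 1 match was present in 52% of all 32851 RefSeq windows of that length (median 1), so a match by itself is common. The longer words GGGCGTGG and GGGTGTGG, searched on both strands (the latter contains GGGTG), were absent from both windows and were found in 4.79% and 3.2% of all windows.

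Hnf4a had 48.2, 48.7, 40.5 and 39.2 CPM in control replicates 1 to 4 and 62.8, 60.8, 61 and 58.3 CPM in Klf4-plasmid replicates 1 to 4. All 4 Klf4-plasmid values exceeded the highest control value. Among all tested genes 26.1% had groups that did not overlap, 17.2% with the Klf4-plasmid group higher. The log2 fold change was 0.47 (SE 0.04, 95% interval 0.38 to 0.56, edgeR adjusted p 8.44e-09). Control levels differed by batch, with a mean of 48.4 CPM in batch 1 and 39.8 CPM in batch 2, whereas Klf4-plasmid means were 61.8 and 59.6 CPM. Within batches the values were 0.35 (batch 1) and 0.58 (batch 2), and the difference of 0.23 between batches did not pass the edgeR interaction test (adjusted p = 0.147, with 0.766% of all tested genes past that threshold). The antisense gene Hnf4aos, which lies across the locus without exonic overlap, had 0 to 6 counts per library and was not tested.

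Hnf4g (ENSMUSG00000017688, chromosome 3, 3508030 to 3658052, plus strand) encodes the paralog of HNF4A, best known from gut, where both act on brush border genes. It had 3.33, 2.4, 3.41 and 2.84 CPM in control replicates 1 to 4 and 2.71, 2.92, 3.25 and 3.24 CPM in Klf4-plasmid replicates 1 to 4. The groups overlapped fully. The log2 fold change was 0.01 with a 95% interval of -0.25 to 0.28 (edgeR adjusted p 0.947), so a change of the size seen for Hnf4a lay outside the interval. The log2 ratio of Hnf4g to Hnf4a counts was -3.88 ± 0.32 in control and -4.32 ± 0.16 in Klf4-plasmid libraries (SD, n = 4). This difference in ratio, -0.44, did not pass a two-sided exact permutation test (p = 0.0857, adjusted over the 4 paralog pairs 0.171, smallest possible 0.0286). It was -0.36 in batch 1 and -0.52 in batch 2. Control replicate 2, with the lowest Hnf4g value, gave a ratio of -4.33, inside the range of the Klf4-plasmid libraries.

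Foxa1 (ENSMUSG00000035451, chromosome 12, 57540628 to 57546916, minus strand) encodes a pioneer factor of endoderm that in islets takes part in glucagon and insulin secretion. Its counts were low, from 65 to 118 in the control group and from 119 to 222 with the Klf4 plasmid. Expression was 2.17, 1.33, 2.39 and 2.32 CPM in control replicates 1 to 4 and 2.4, 2.63, 3.58 and 4.21 CPM in Klf4-plasmid replicates 1 to 4. The groups did not overlap, but the gap between the highest control and the lowest Klf4-plasmid library was narrow, 2.39 against 2.4 CPM, and each batch was separated on its own. For Foxa1 the log2 fold change was 0.63 (SE 0.14, 95% interval 0.33 to 0.93, edgeR adjusted p 0.00134), 0.52 in batch 1 and 0.72 in batch 2. Without the batch term the call was lost (adjusted p = 0.0574).

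Foxa3 (ENSMUSG00000040891, chromosome 7, 19013284 to 19023538, minus strand) encodes a FOXA protein abundant in adult liver. Its bases before the RefSeq start are shown because it rose and because its window held 1 match to GGGTGTGG. The windows of Foxa1, which also rose, and of Onecut1, which was not tested, are not shown. They held 1 and 3 matches to CACCC or its reverse complement, and neither longer word. Whether a match bears on expression was not tested.
Foxa3 start, minus strand, chr7:19023540-19023789: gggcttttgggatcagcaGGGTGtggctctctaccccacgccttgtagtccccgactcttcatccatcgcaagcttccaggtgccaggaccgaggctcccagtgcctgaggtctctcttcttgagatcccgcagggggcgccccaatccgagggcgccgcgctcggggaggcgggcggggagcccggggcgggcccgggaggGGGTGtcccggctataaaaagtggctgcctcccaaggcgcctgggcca
Foxa3 had 6.97, 7.35, 6.15 and 6.38 CPM in control replicates 1 to 4 and 9.29, 10.1, 7.32 and 9.1 CPM in Klf4-plasmid replicates 1 to 4. Klf4-plasmid replicate 3, at 7.32 CPM, fell just under control replicate 2 at 7.35 CPM, so the groups overlapped across batches. Within batch 1 (6.97 to 7.35 against 9.29 to 10.1 CPM) and within batch 2 (6.15 to 6.38 against 7.32 to 9.1 CPM) they did not. A log2 fold change of 0.41 resulted (SE 0.08, 95% interval 0.24 to 0.58, edgeR adjusted p 0.000301), 0.44 in batch 1 and 0.39 in batch 2. The log2 ratio of Foxa3 to Foxa1 counts changed by -0.23, from 1.74 ± 0.5 to 1.51 ± 0.5 (SD, n = 4, exact permutation p = 0.543, adjusted 0.543). The remaining FOXA gene, Foxa2, had the highest level per kilobase of the 3, at 25.8 ± 1.06 RPKM (reads per kilobase of exon and per library scaled as CPM) in control and 25.8 ± 1.09 RPKM with the Klf4 plasmid. The 95% interval of its log2 fold change was -0.08 to 0.08 (edgeR adjusted p 0.982).

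Onecut2 (ENSMUSG00000045991, chromosome 18, 64340020 to 64400987, plus strand) encodes a CUT-homeodomain factor of liver, pancreas and neuroendocrine cells, and it was the only one of the 8 that fell. It had 99.9, 110.2, 89 and 87.6 CPM in control replicates 1 to 4 and 87.8, 85.3, 75.2 and 74.2 CPM in Klf4-plasmid replicates 1 to 4. Batch 2 lay lower in both groups, and Klf4-plasmid replicate 1, of batch 1, lay within the range of the batch 2 controls. Inside each batch the groups were apart, 99.9 to 110.2 against 85.3 to 87.8 CPM in batch 1 and 87.6 to 89 against 74.2 to 75.2 CPM in batch 2. Onecut2 had a log2 fold change of -0.26 (SE 0.03, 95% interval -0.33 to -0.19, edgeR adjusted p 1.4e-06), -0.28 in batch 1 and -0.24 in batch 2. Across the other settings it ranged from -0.30 to -0.23 and stayed past the threshold.

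Onecut1 (ENSMUSG00000043013, chromosome 9, 74861921 to 74891781, plus strand) encodes HNF6, a factor that precedes Neurog3 in endocrine progenitors and is lost from mature β-cells. It had 0 counts in each control library and 1, 1, 3 and 2 counts in Klf4-plasmid replicates 1 to 4. These values are at or under 3 counts, the limit that a count of 0 allows, so no fold is given, and the gene fell below the filter. Without the filter it did not pass the test (edgeR adjusted p 0.236). The ratio of Onecut2 to Onecut1 rests on those few counts and is not read, although its log2 difference of -2.27 gave the smallest exact permutation p of the design, 0.0286 (adjusted 0.114). Of the 4113 exonic bases of Onecut1, 2171 are shared with the non-coding gene Gm20649 on the same strand. Gm20649 had 0 counts in every library. How reads from shared bases were counted is not given, so the low counts of Onecut1 do not establish that its RNA was absent. Onecut3, the third gene of the family, rose from 1.06 ± 0.583 to 13.9 ± 2.92 CPM (SD, n = 4), a log2 fold change of 3.70 (SE 0.21, adjusted p 1.05e-12 by edgeR). Its control counts were 84, 60, 21 and 39 and its Klf4-plasmid counts 556, 565, 778 and 922, with no overlap.

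Gata4 (ENSMUSG00000021944, chromosome 14, 63198922 to 63271692, minus strand) encodes a zinc-finger factor of heart, foregut and early pancreas. Its counts were 5, 3, 1 and 2 in control replicates 1 to 4 and 103, 67, 168 and 170 in Klf4-plasmid replicates 1 to 4. In CPM this was 0.0574 ± 0.0367 and 2.47 ± 0.876 (SD, n = 4). Pooled over libraries, 11 counts stood against 508, a ratio of 44.1 with an exact 95% interval of 24.5 to 89, which covers counting error only. The edgeR log2 fold change was 5.36 (SE 0.33, adjusted p 6.71e-12). Batch 2 libraries were the higher ones among Klf4-plasmid cells, at 3.2 and 3.22 CPM against 1.99 and 1.48 CPM in batch 1. The log2 fold change was 4.34 in batch 1 and 6.59 in batch 2, and the difference did not pass the interaction test (adjusted p = 0.353).

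Gata6 (ENSMUSG00000005836, chromosome 18, 11052064 to 11085635, plus strand) encodes the paralog that acts with GATA4 in pancreas formation. Its counts were 10, 4, 0 and 1 in control replicates 1 to 4 and 122, 119, 124 and 175 in Klf4-plasmid replicates 1 to 4, or 0.0788 ± 0.0957 and 2.67 ± 0.453 CPM (SD, n = 4). The pooled ratio of 540 to 15 counts was 34.4 (exact 95% interval 20.7 to 61.9). The edgeR log2 fold change was 5.06 (SE 0.37, adjusted p 1.39e-10), 4.07 in batch 1 and 7.80 in batch 2. That difference between batches rests on 10 and 4 control counts in batch 1 against 0 and 1 in batch 2 and did not pass the interaction test (adjusted p = 0.112), although it did when no filter was applied (adjusted p = 0.0341). Control replicate 1 held the most control counts of each gene. Without it the log2 fold change was 6.18 for Gata6 and 5.93 for Gata4, and without control replicate 3 it was 4.62 and 4.94, all past the threshold. The log2 ratio of Gata6 to Gata4 went from -0.26 ± 1.12 to 0.17 ± 0.52 (SD, n = 4, exact permutation p = 0.543, adjusted 0.543).

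The non-coding gene 1010001N08Rik is annotated antisense to Gata6 and shares 93 exonic bases with it. It had 0 counts in each control library and 11, 6, 10 and 23 counts in Klf4-plasmid replicates 1 to 4. Their mean CPM was 3.91 times the mean CPM of a floor of 3 counts per control library, which leaves out counting error. This non-coding gene, chosen for mention after its values were known, fell below the filter. The strand setting of the counting is not given in the sources used here, so reads from the shared bases cannot be assigned to either gene.

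Levels of different genes were compared in RPKM, with exonic lengths from GENCODE M21. In control cells the order was Hnf4a at 9.14 ± 1.04, Onecut2 at 5.96 ± 0.65, Foxa3 at 3.29 ± 0.27, Hnf4g at 1.14 ± 0.178 and Foxa1 at 0.617 ± 0.147 RPKM (SD, n = 4). The ranges of neighbours down to Foxa1 did not overlap. Gata4 at 0.0147 and Gata6 at 0.0121 RPKM could not be ordered, and Onecut1 was at 0. In Klf4-plasmid cells the same order held by mean, with Hnf4a at 12.6 ± 0.385, Onecut2 at 4.97 ± 0.427 and Foxa3 at 4.4 ± 0.578 RPKM (SD, n = 4). Onecut2 (4.57 to 5.41) and Foxa3 (3.59 to 4.97) then overlapped, as did Hnf4g (1.03 to 1.24) and Foxa1 (0.721 to 1.26). Gata4 reached 0.633 ± 0.224 and Gata6 0.41 ± 0.0696 RPKM, so Gata4 came into the range of Foxa1. By mean level, Gata4 and Gata6 lay below every other factor of the 8 but Onecut1. Among protein-coding genes with a count in the group, Hnf4a stood above 69.5% in control and 76.9% with the Klf4 plasmid, Gata4 above 11.4% and 33.6%, and Gata6 above 10.2% and 30.6%.

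**Figure D2:**
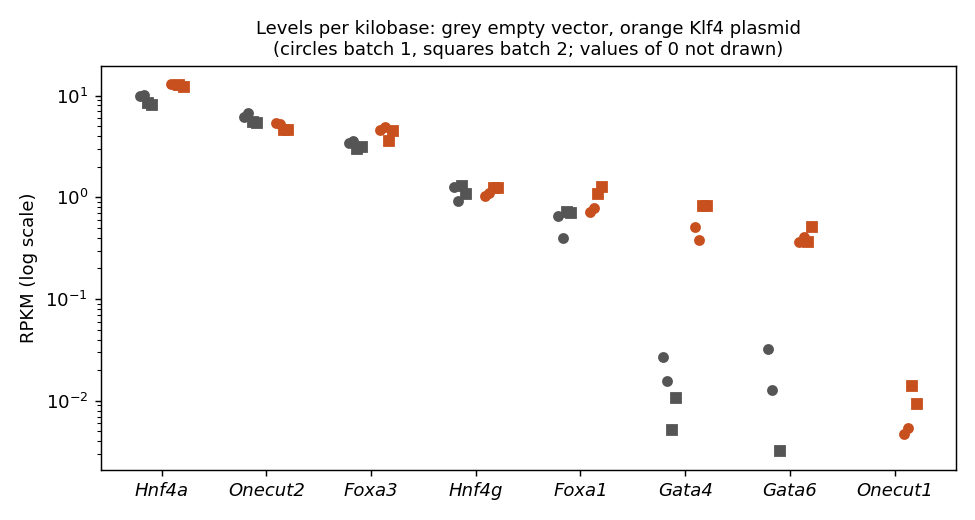
Level per kilobase (RPKM, log axis) of the 8 factors in each library, ordered by control mean, grey for empty vector and orange for the Klf4 plasmid, circles for batch 1 and squares for batch 2. Hnf4a lies highest in both groups, and Gata4 and Gata6 move from at most 0.0326 RPKM in control to between 0.362 and 0.826 RPKM.

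Family relatives were set beside the 8 factors. Of 8 relatives, 7 were tested, and Gata1 and Gata3 passed the filter through the Klf4-plasmid libraries alone. Of the 5 that reached the filter's level in every control library, 3 rose and none fell, beside 35.5% called among all such genes, and their median log2 fold change was 0.36. Across the GATA family, Gata2, a factor of blood stem cells and neurons, rose from 1.15 ± 0.196 to 7.71 ± 0.586 CPM (log2 fold change 2.74, SE 0.12, adjusted p 2.03e-14 by edgeR). Gata3, known from T cells and trophoblast, had 0, 3, 1 and 2 control counts and 69, 71, 87 and 110 counts after Klf4 transfection (log2 fold change 5.63, edgeR adjusted p 5.41e-11). Gata1, the erythroid member, had 3 to 8 control counts and 38 to 71 counts after Klf4 transfection (log2 fold change 3.16, edgeR adjusted p 3.17e-08). Gata5 had 0 counts in all libraries but 1, which had 2. Groups that do not overlap were fixed by the filter for Gata1, Gata3 and Gata4.

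**Figure D3:**
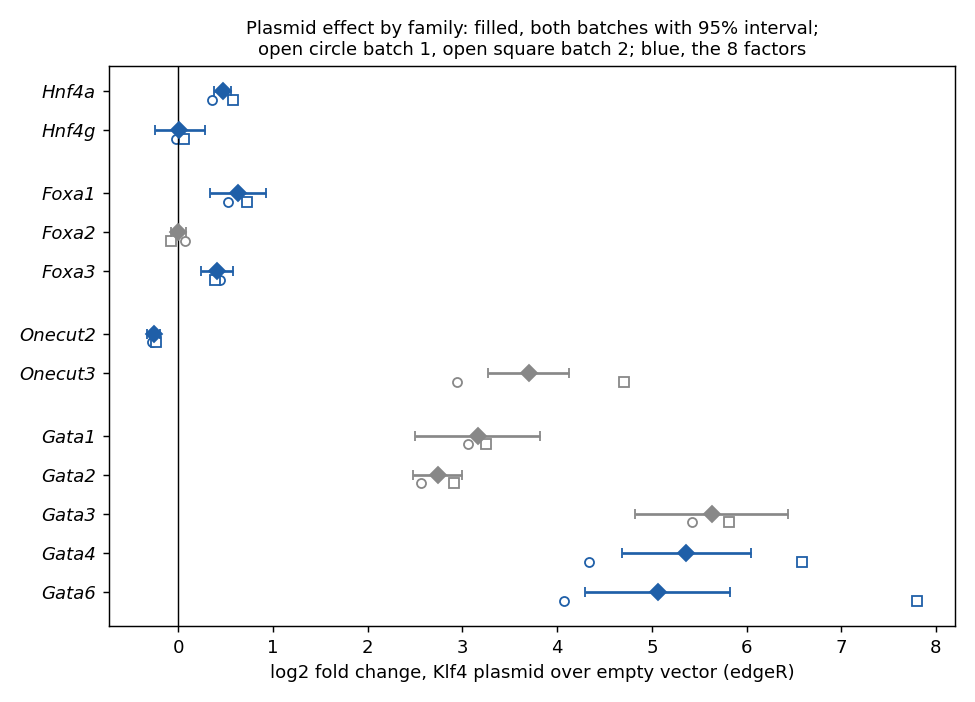
Log2 fold change of the Klf4 plasmid over empty vector for the tested genes of the HNF4, FOXA, ONECUT and GATA families, blue for the 8 factors and grey for relatives, with 95% intervals, open circles for batch 1 and open squares for batch 2. The 5 tested GATA genes and Onecut3 lie between 2.74 and 5.63, Onecut2 at -0.26, and the HNF4 and FOXA genes at 0.63 or below. Gata1, Gata3, Gata4 and Gata6 passed the filter on low counts through their Klf4-plasmid libraries. A rise was therefore required of them, and no contrast between families is drawn.

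Other factors of definitive endoderm, foregut and liver were mostly below the filter. Of 16 listed, 6 were tested and 3 rose, 50% called beside 36.6% of all tested genes, with a median log2 fold change of 0.64. Prox1, a homeobox factor of liver, pancreas and lymphatic vessels, rose from 30.2 ± 0.785 to 57.9 ± 5.67 CPM (log2 fold change 0.93, SE 0.04, adjusted p 6.49e-14 by edgeR). Cebpa, which drives hepatocyte and fat cell genes, rose from 0.413 ± 0.0772 to 3.83 ± 1.01 CPM (log2 fold change 3.18, SE 0.19, adjusted p 4.63e-12 by edgeR). Cebpb, its stress-responsive relative, rose from 44.3 ± 4.99 to 81.1 ± 14.3 CPM (log2 fold change 0.86, SE 0.04, adjusted p 1.17e-13 by edgeR). The bile acid receptor gene Nr1h4, the lipid receptor gene Ppara and Tbx3 did not pass the test, with log2 fold changes of -0.09, 0.41 and 0.04. The other 10 genes, among them Sox17, Hhex and Nr5a2, fell below the filter, with group means of at most 0.222 CPM in either group. Of these, Sox2 had 0 counts in each control library and 14, 12, 9 and 8 counts in Klf4-plasmid replicates 1 to 4. Gsc had 0 control counts and 6, 7, 9 and 22 counts, and Sox9 had 1, 0, 0 and 0 control counts and 6, 8, 10 and 18. Cer1 did not rise, with 3, 12, 1 and 6 control counts and 3, 7, 2 and 5 counts with the Klf4 plasmid. No library of the other genes held more than 15 counts. Without the filter, 7 of the 16 were called, beside 7370 of all 33674 genes then tested.

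All 12 listed cofactors of these proteins were tested, and of them 3 rose and 4 fell. Without Zfpm2, which passed the filter through the Klf4-plasmid libraries alone, 54.5% of 11 were called beside 35.5% of all genes that reached the filter's level in every control library. The risers included both FOG genes, whose products bind GATA factors. Zfpm1 rose from 15.1 ± 2.66 to 35.1 ± 2.63 CPM (log2 fold change 1.22, SE 0.08, adjusted p 3.05e-11 by edgeR), and Zfpm2 from 0.0935 ± 0.0556 to 1.37 ± 0.323 CPM (log2 fold change 3.83, SE 0.36, adjusted p 1.08e-08 by edgeR). The coactivator gene Ncoa2 rose by 0.14 on the log2 scale, while Crebbp (-0.19), Ep300 (-0.13), Med1 (-0.12) and Ncoa1 (-0.10) fell. With scaling factors from abundant genes, Ep300, Med1 and Ncoa1 lost their call. Pcbd1, encoding a cofactor of homeodomain proteins, lay at 99.5 ± 6.71 and 99.4 ± 5.19 CPM (log2 fold change 0.00, edgeR adjusted p 1), and Ppargc1a and Nr0b2, a coactivator and a corepressor of HNF4A, did not pass the test.

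Most listed hepatocyte genes did not pass the test or the filter. Whether the 8 factors control them in these cells was not tested. Of 34 hepatocyte genes, 33 had a row and 20 were tested. Tf had no row under that symbol. Of those, 3 rose, 1 fell and 16 did not pass the test. Of the 17 that reached the filter's level in every control library, 1 rose and 1 fell, 11.8% called beside 35.5% of all such genes, and their median log2 fold change was -0.03. Ahsg, encoding the plasma protein fetuin-A, rose from 0.0306 ± 0.0354 to 0.746 ± 0.353 CPM (log2 fold change 4.46, edgeR adjusted p 4.44e-07, and 5.17 without control replicate 2). The prothrombin gene F2 rose from 0.435 ± 0.2 to 0.893 ± 0.213 CPM (log2 fold change 1.03, edgeR adjusted p 0.0103) and the urea cycle gene Cps1 from 0.295 ± 0.0614 to 0.65 ± 0.246 CPM (log2 fold change 1.13, edgeR adjusted p 0.0113). F2 lost its call without control replicate 3 (adjusted p = 0.0539) or Klf4-plasmid replicate 3 (0.055). Cps1 lost it without control replicate 4 (adjusted p = 0.0541), Klf4-plasmid replicate 1 (0.0728) or Klf4-plasmid replicate 4 (0.0507). Ahsg passed the filter through the Klf4-plasmid libraries alone. Mttp, which loads lipid onto apolipoprotein B, fell by 0.14 on the log2 scale. Ttr, Slc2a2 and Pklr, more abundant than Mttp, did not pass the test, with log2 fold changes of -0.02, -0.07 and 0.06. Ttr is also on the α-cell and Slc2a2 on the β-cell marker list used here.

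Enterocyte genes included large increases. Of 22 listed, 13 were tested, 7 rose and 1 fell. Of the 10 that reached the filter's level in every control library, 5 rose and 1 fell, beside 35.5% called among all such genes, and their median log2 fold change was 0.38. The homeobox gene Isx, which represses vitamin A uptake in gut, had 0, 0, 1 and 1 control counts and 213, 140, 199 and 211 counts after Klf4 transfection (log2 fold change 8.19, SE 0.35, adjusted p 7.84e-15 by edgeR). Slc15a1, the intestinal peptide transporter gene, had 0 to 4 control counts and 85 to 115 counts after Klf4 transfection (log2 fold change 6.13, edgeR adjusted p 2.63e-11, and 7.70 without control replicate 3). Both genes passed the filter through the Klf4-plasmid libraries alone. Myo1a, the brush border myosin gene, rose from 1.08 ± 0.199 to 30.7 ± 1.9 CPM (log2 fold change 4.82, SE 0.09, adjusted p 4.16e-21 by edgeR). Lgals4, a gut galectin gene, rose from 3.66 ± 0.349 to 11.4 ± 0.637 CPM (log2 fold change 1.65) and Cdhr2, a microvillus cadherin gene, from 31.9 ± 4.84 to 65.9 ± 3.1 CPM (log2 fold change 1.06). Vil1 and Cdx2 rose by 0.44 and 0.32 on the log2 scale, and the lactase gene Lct fell by 0.09. The call for Cdx2 was lost without control replicate 1, control replicate 4, Klf4-plasmid replicate 1 or Klf4-plasmid replicate 2, and that for Lct was lost with the replicate number as a block (adjusted p = 0.0685). Of 5 enterocyte markers, Fabp2, Sis and Apoa4 stayed below the filter, at most at 0.0962 CPM in group mean. The other markers were expressed in both groups. Lct lay at 129.3 CPM in control and 121.9 CPM in Klf4-plasmid libraries, and Cdx2 at 4.48 and 5.545 CPM.

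**Figure D4:**
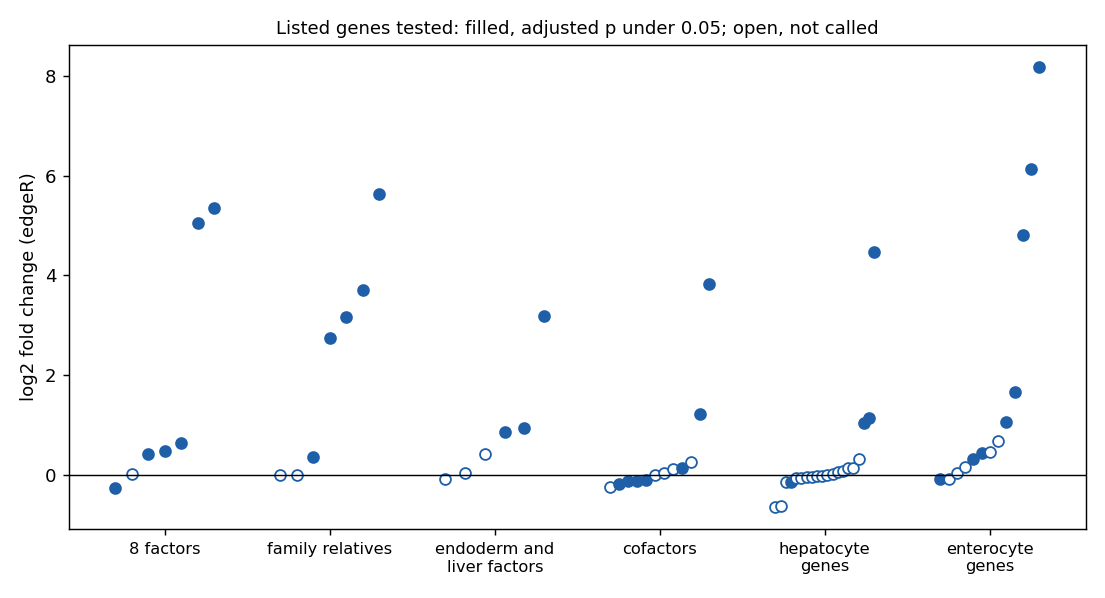
Log2 fold change of every tested gene of the 6 lists, sorted within each list, filled where the adjusted p was under 0.05. Most hepatocyte genes lie near 0, and the enterocyte list reaches from -0.09 to 8.19.

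Marker lists of other cell types were read beside these results. Calls made up 66.7% of 3 tested mesenchyme, 66.7% of 3 duct, 33.3% of 3 endothelial and 60% of 5 α-cell markers. Among all tested genes 36.6% were called. Tested markers of these lists that were not called were Col1a2, Spp1, Pecam1, Tek, Gcg and Ttr. The lists are short and some of their genes passed the filter through the Klf4-plasmid libraries, so no support is drawn from these shares. Of 5 mesenchyme markers, Col1a1 and Pdgfra rose (Pdgfra passed the filter through the Klf4-plasmid libraries alone), the summed level was 2.65 to 3.86 CPM in control and 5.8 to 7.22 CPM in Klf4-plasmid libraries, and Col3a1 had a mean of at most 0.0145 CPM. Of 5 duct markers, Krt19 (below the filter's level in 2 control libraries) and Krt7 rose and the summed level was 54.1 to 84.5 CPM in control and 69.6 to 107 CPM in Klf4-plasmid libraries. Of 4 endothelial markers, Cdh5 rose from 0 counts in each control library to 14, 28, 19 and 19 counts, which alone brought it past the filter, and the summed level was 4.1 to 4.42 CPM in control and 5.01 to 5.28 CPM in Klf4-plasmid libraries. Of 5 α-cell markers, Irx2 rose and Slc7a2 and Gc fell, with summed levels of 841 to 989 CPM and 814 to 942 CPM. Of 4 leukocyte markers 2 were tested, and of 5 acinar markers 1 was, and none of these passed the test. The acinar genes Prss2 and Amy2a5 were at 0 in all libraries, while Ptf1a, below the filter, had 1, 0, 0 and 0 control counts and 18, 7, 12 and 15 counts in Klf4-plasmid libraries. Of 8 β-cell markers Iapp, Slc30a8, G6pc2 and Mafa fell and none rose, beside 36.6% of all tested genes called, and the list's median log2 fold change was -0.07. Mafa had log2 fold changes of -0.05 (batch 1) and -0.30 (batch 2), which differed by edgeR's interaction term (adjusted p = 0.00817). Without the batch term Iapp, Mafa, Krt7 and Slc7a2 lost their calls, and Iapp also with factors from abundant genes. The part of other cell types in the results was not tested.

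The tested genes whose profiles lay nearest to each changed factor were found by the root mean square difference of log2 CPM, centred on each gene's mean, over the 8 libraries, which share plasmid and batch. For Hnf4a these were Suox, Lbh and Tmem25, at 0.04, 0.05 and 0.05. For Foxa1 they were Sema4g, Msrb2 and Hpdl, at 0.14 to 0.15, and for Foxa3 they were Ssh3, Plekhg2 and Chrna4, at 0.06 to 0.07. Onecut2 was nearest to Zfp952, Sik3 and Ndufaf6, at 0.03 to 0.04. Gata4 was nearest to Cpxm1, Itpka and Ephb6, all at 0.17. Gata6 was nearest to Slc22a18 at 0.18, to Onecut3 at 0.27 and to Nbl1 at 0.35.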

How the data were processed

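The authors deposited raw whole-number read counts per gene and library. The name of the deposited table states trimming with cutadapt, and the submitters' processing notes name FastQC, STAR, featureCounts, edgeR and the build mm10. Versions, annotation and strand setting are not given in the sources used here. Per the labels' protocols, polyadenylated RNA was sequenced (the extraction text speaks of islets, every label of MIN6). All 55536 pairs of identifier and symbol were those of GENCODE M21 (GRCm38), which gave positions and exonic lengths. Exons of Gata6, Onecut1, Gata3, Cebpa, Cebpb, Prox1, Ahsg, Ep300, Ncoa1, Mttp and Vil1 overlap those of another gene, so their counts are uncertain. The same holds for Gata5, Tbx3, Sox17, Pklr, Apoa4, Pdgfra, Col3a1, Krt7, Spp1, Slc7a2 and Ptf1a. Genes named only as nearest profiles were not checked for overlap.

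Counts were analysed in edgeR 4.0.16 (R 4.3.3): filterByExpr with a minimum count of 10, TMM factors (0.996 to 1.005), and a quasi-likelihood fit with batch and plasmid, as the series describes. Intervals of log2 fold changes are 95% intervals on the fit's degrees of freedom. Log2 fold changes of genes near 0 counts rest on the prior count edgeR adds. Paralog ratios used counts plus 0.5 and exact permutation over 70 relabellings, which need 4 against 4. Alternatives were no batch term, a replicate block, DESeq2 1.42.0 (its factors, and its Wald test), factors from genes of average log2 CPM of at least 6, limma-voom (limma 3.58.1), other filters and the omission of each library. Deviations of same-numbered libraries from their group means correlated at 0.63, 0.47, 0.58 and 0.53 over 10485 genes. With batch means removed, the values were -0.05 in batch 1 and 0.08 in batch 2, so the correlation went no further than the shared batch. Promoter windows are from RefSeq (GRCm38.p6), in which 4 of the 8 factors were matched for use here. By rule, named genes were the 8 factors, Klf4 and listed genes past the threshold (the 5 largest per list with values). The rule also named the 3 nearest profiles per changed factor, taken from protein-coding genes above a log2 CPM of 1 on average, with 0.1 CPM added. Other listed genes, not called or not tested, are named outside that rule, among them Foxa2, Sox2, Gsc, Sox9, Cer1 and Ptf1a. So are the non-coding genes that overlap Hnf4a, Gata6 and Onecut1. Some single genes of the lists are not reported here, and counts and medians of whole lists include them. Members and lists were chosen with earlier results of these data known. P-values measure the spread between these cultures of 1 cell line.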

Additional observations from a re-analysis of the deposited data

Results flagged for a closer look

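A library far from the other 3 of its group was looked for in 102 sets of 4 values and found in 1, where chance gives about 5.1. This was Crebbp in Klf4-plasmid replicate 2, at 110.8 CPM, above the others of its group at 105 to 105.3 CPM.

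The effect of the plasmid differed between batches for 4 listed genes and for Klf4 itself by edgeR's interaction test (batch 2 minus batch 1, log2, adjusted over all tested genes). The difference was 1.76 for Onecut3 (adjusted p = 0.00101), which rose by 2.94 in batch 1 and 4.71 in batch 2. It was 0.61 for Zfpm1 (adjusted p = 0.000857), from 0.93 to 1.53, and 0.41 for Cdhr2 (adjusted p = 0.00471), from 0.85 to 1.27. For the β-cell marker Mafa it was -0.25 (adjusted p = 0.00817), from -0.05 to -0.30. For Klf4 it was 0.37 (adjusted p = 0.0057), from 6.79 to 7.16. No explanation was tested.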

How the results depend on the processing

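Of the 8 factors, 6 were called under each alternative but the fit with no batch term, where 5 were, Foxa1 having lost its call at the same size of change (0.64). That fit gave 4116 called genes against 6684, with 1159 lower against 2828, and 3 called cofactors against 7. With factors from abundant genes there were 1638 lower genes and 4 called cofactors. With no filter, 7 endoderm and liver factors and 7 hepatocyte genes were called, against 3 and 4, with genes near 0 counts then tested too. Of all 33674 genes then tested, 7370 were called. With a filter at 1 CPM in 4 libraries, which tests fewer genes, 1 hepatocyte gene was called. With no filter the difference between batches passed the threshold for Gata6 (3.73). Without the batch term Ncoa1, Ncoa2, Med1, Ep300, Mttp, Cdx2 and Lct also lost their calls, and with factors from abundant genes Ncoa1, Med1, Ep300, Mttp and Lct did. Lct lost it too at 1 CPM and without 6 of the 8 libraries in turn, Med1 without control replicate 4 or Klf4-plasmid replicate 3, and Ncoa1 and Ep300 without Klf4-plasmid replicate 1. With the replicate number as a block, 6284 genes and 6 of the 8 factors were called. Among the named genes that block changed the call of Lct alone, and the sign-flip tests of the paralog pairs, whose adjusted p was 0.25 to 0.375, could not pass in a design of 4 pairs. Leaving out 1 library at a time gave 5889 to 7074 called genes and 6 called factors each time. No called change of a named gene reversed. Values that missed the threshold crossed 0 for Hnf4g (-0.08 to 0.1) and for the log2 ratios Gata6/Gata4 (-0.02 to 0.92) and Foxa3/Foxa1 (-0.38 to 0.01). With at most 10 counts per control library, the size of the changes in Gata4 (4.94 to 5.93) and Gata6 (4.62 to 6.18) is imprecise.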
